A study of Homo sapiens with 4 samples.

Results

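The collagen genes of human blastoids and of the embryonic stem cells they were made from are described here. A gene was taken as a member when its symbol in any of the 4 count tables had the form COL, a number, A, a number, with no suffix. There were 44 such genes among 23364 listed in any table. The tables of the samples called here hESC 1, hESC 2, blastoid 3 and blastoid 4 listed 35, 38, 41 and 42 of them. The hESC samples were KhES1, an established line of human embryonic stem cells, grown on Matrigel in mTeSR-1 medium with Y27632, a ROCK inhibitor, on the first day after passage. The blastoid samples were KhES1 cells treated with Y27632 in mTeSR-1, aggregated in Aggrewell 400 plates, moved into PNIPAAm-β-PEG hydrogel with DMEM and FBS, and then kept in iBlastoid medium. A blastoid is a stem cell aggregate grown as a model of the blastocyst. The titles of the blastoid samples carry day 0, and the names of their tables carry day 9. Both groups came from 1 cell line, and the labels do not say whether the 2 samples of a group were separate cultures, so p-values measure the spread between these samples, which may be technical.

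Collagens are secreted or membrane proteins whose chains wind into triple helices. Fibrillar collagens build the fibres of connective tissue, type IV collagen builds the network of basement membranes, type VI collagen forms beaded filaments around cells, and the FACIT collagens attach to fibrils. Several types, among them I, IV, V, VI, IX and XI, join partner chains from different genes in 1 molecule. For these the balance between partners matters for what a cell can assemble. In the early embryo basement membranes underlie the epithelia, and mesenchyme is a main source of fibrillar collagen.

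Single-cell libraries of the 3′ ends of transcripts were compared over cells with at least 500 genes, which left 2265, 3175, 2289 and 1951 cells holding 13488703 to 18139535 UMIs per sample, with a median of 4996 to 8828 UMIs per cell. A UMI is a tag that marks 1 captured molecule, and levels are given as UMIs per 1000000 of the library (CPM). These counts come from the end of a transcript and do not grow with its length, but capture can differ between genes, so levels are compared between samples and not between genes. Within a group the samples shared cell barcodes, 1317 in the hESC pair and 1035 in the blastoid pair, against 6 to 14 between groups. Both copies passed the filter for 23 and 0 of these. Leaving out the copy with fewer UMIs took only 20, 3, 0 and 0 kept cells from the 4 samples. It changed no count of called collagen genes between blastoids and hESC, but so few cells could hardly have moved one. What the sharing means for the independence of the samples of a group was not tested.

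The blastoid cells were divided by 5 lists of 10 marker genes, none a collagen. A cell went to the class of which it showed most markers, with at least 2. In blastoid 3 and blastoid 4, 1600 and 1099 cells (69.9% and 56.33%) were in the mesenchymal class (PDGFRA, TWIST1, FOXF1, HAND2 and others), and 448 and 661 (19.57% and 33.88%) in the epithelial class (KRT7, GATA3, GABRP, VTCN1 and others). A further 127 and 111 cells were in the pluripotent class, 5 and 12 in the endothelial class and 3 and 0 in the endoderm class. Such classes are ranges of a score, and 155 and 106 mesenchymal and 28 and 22 epithelial cells were 1 marker from another class. The summed level of the mesenchymal markers was 8.08 and 6.28 CPM in the hESC samples, with 5 of the 10 at 0 in each, and 2098.4 and 1670.9 CPM in the blastoids.

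The genes of type IV collagen lie in pairs that point away from each other. Sequence between the start sites is shown for 2 pairs whose members were both called higher in blastoids below, and its part in these levels was not tested. COL4A1 and COL4A2 are separated by 126 bases on chromosome 13 and COL4A5 and COL4A6 by 379 bases on chromosome X. Of the latter stretch only the 250 bases next to the COL4A5 start site are printed. Printed as well are the stretches before COL6A3 and COL12A1, the members with the largest rise from a measured hESC level and the largest excess in epithelial cells. The sequences are RefSeq windows of GRCh38.p14, cut to end before the start site. Capitals mark matches on either strand to the CCAAT box, to the GC box core (letters GGGCGG) and to the TATA element (letters TATAAA). The 1st and the 2nd stretch are on the plus strand and the others on the minus strand, at chr13:110307158-110307283, chrX:108439588-108439837, chr2:237414165-237414414 and chr6:75206054-75206303.

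Between COL4A1 and COL4A2: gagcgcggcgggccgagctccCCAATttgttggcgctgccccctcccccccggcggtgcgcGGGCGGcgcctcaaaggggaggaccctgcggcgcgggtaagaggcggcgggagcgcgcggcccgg
Before COL4A5: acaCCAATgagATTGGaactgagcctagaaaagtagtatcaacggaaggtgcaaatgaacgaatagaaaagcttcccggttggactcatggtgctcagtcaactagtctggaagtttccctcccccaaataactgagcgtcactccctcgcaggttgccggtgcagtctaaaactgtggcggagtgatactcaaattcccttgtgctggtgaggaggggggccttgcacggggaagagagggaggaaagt
Before COL6A3: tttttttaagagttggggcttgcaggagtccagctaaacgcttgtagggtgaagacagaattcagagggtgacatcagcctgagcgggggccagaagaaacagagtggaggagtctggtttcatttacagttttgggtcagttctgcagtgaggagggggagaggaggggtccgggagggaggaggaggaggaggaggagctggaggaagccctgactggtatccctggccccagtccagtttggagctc
Before COL12A1: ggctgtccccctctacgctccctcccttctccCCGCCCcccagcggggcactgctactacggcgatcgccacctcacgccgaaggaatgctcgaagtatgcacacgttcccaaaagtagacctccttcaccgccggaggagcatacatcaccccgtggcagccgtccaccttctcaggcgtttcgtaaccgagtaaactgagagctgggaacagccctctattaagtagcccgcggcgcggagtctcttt

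The stretch shared by COL4A1 and COL4A2 was 80.2% G and C and held 1 CCAAT box and 1 GC box core. That before COL4A5 held 2 CCAAT boxes, that before COL12A1 held 1 GC box core, and that before COL6A3 held none of the 3 motifs. Of the 44 members 32 had a window of 300 bases in the table. Among these 32, 31.2% held the CCAAT box, 56.2% the GC box core and 15.6% the TATA element, against 35.7%, 44.6% and 12.0% of 27305 promoters. No match overlapped another in the printed stretches, and a match is a description of the sequence.

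Collagen genes as a group were at 478.6 and 476.4 CPM in hESC 1 and hESC 2 and at 3813.6 and 2656.1 CPM in blastoid 3 and blastoid 4, a 6.77-fold higher mean in the blastoids. The samples of the groups do not overlap, and an exact two-sided permutation test of 2 against 2 cannot give a p below 0.33. Tested gene by gene with edgeR (quasi-likelihood, Benjamini-Hochberg adjustment over 16368 genes, called at an adjusted p under 0.05), 25 of the 36 collagen genes with enough counts were higher in blastoids and 5 were lower. Of all genes tested, 27.3% were called higher and 23% lower. COL3A1 and COL15A1, in neither hESC table, are among the 25, although they passed the filter on counts only through the blastoid samples. The median log2 fold change was 1.3 for the collagen genes, also with COL3A1 and COL15A1 at their lower bounds given below, and 0.05 for all genes. In sums over a sample, more cells of a type and more RNA per cell cannot be told apart. Of the 8 genes with too few counts to test, COL4A3, COL6A5, COL8A1, COL10A1, COL17A1, COL19A1, COL20A1 and COL28A1, none exceeded 0.788 CPM in any sample.

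**Figure D1:**
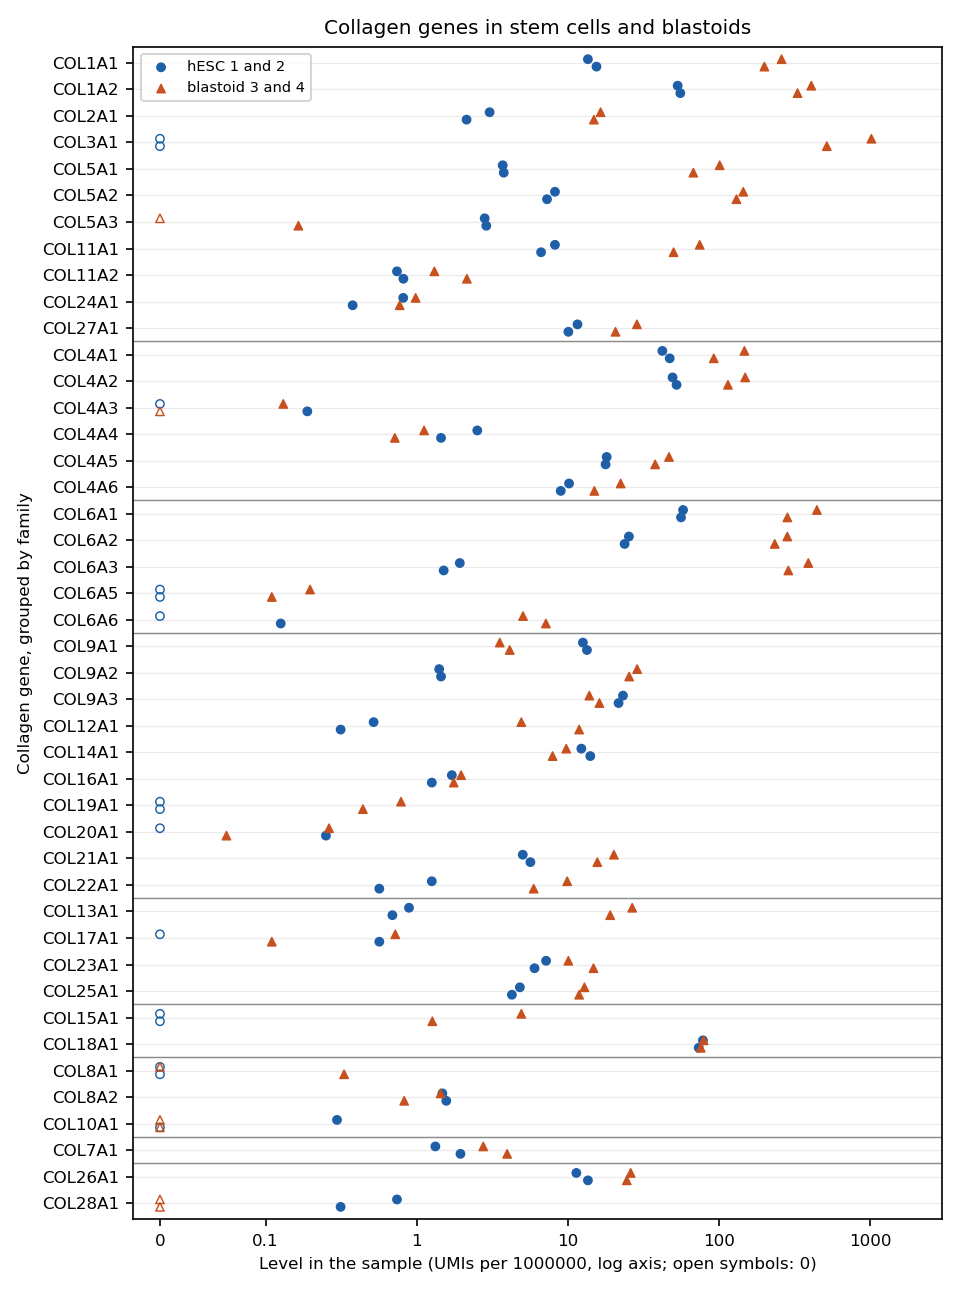
Level of each of the 44 collagen genes in UMIs per 1000000 on a log axis, with 1 symbol per sample (circles for hESC 1 and 2, triangles for blastoid 3 and 4, open symbols for 0), grouped by family. The blastoid symbols lie to the right of the hESC symbols for most fibrillar and type VI genes, and the 4 symbols of COL18A1 coincide between 73.6 and 79.3.

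Of the collagen families, the fibrillar one had the largest rise in summed level, 16.1-fold against 11.6-fold for the type VI genes. Together the 11 fibrillar genes were at 106.2 and 105.2 CPM in hESC and at 2060.7 and 1338 CPM in blastoids. Of these genes 8 were called higher and 1 lower. A large part of the blastoid sums, and so of the rise of the family, was COL3A1 alone. COL3A1, the chain of type III collagen found in pliable connective tissue, was missing from both hESC tables and reached 1022.6 and 518.5 CPM in the blastoids. Against a limit of 9.15 counts over the hESC group this is at least 2203.3-fold higher. The test (edgeR adjusted p = 1.53e-05) used hESC counts set to 0, and COL3A1 passed the filter on counts only through the blastoid samples. Blastoid 3, the higher of the samples, also had the larger share of mesenchymal cells (69.9% against 56.33%). Within mesenchymal cells COL3A1 was also the higher in blastoid 3, at 1460.3 against 902.3 CPM. The cause of the difference between these samples was not tested.

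COL1A1 and COL1A2, the chains of type I collagen, were both measurable in the stem cells. COL1A1 was at 13.6 and 15.5 CPM in hESC and at 260.1 and 200.2 CPM in blastoids, a log2 fold change of 3.84 ± 0.16 (SE; edgeR adjusted p = 6.28e-06). COL1A2 was at 53.4 and 55.6 CPM in hESC and at 409.3 and 331.9 CPM in blastoids (log2 fold change 2.63 ± 0.14, edgeR adjusted p = 1.22e-05). Both rose, and COL1A1 took a larger part of their joint UMIs in the blastoids, 38.9% and 37.6% against 20.4% and 21.8%. The exact 95% intervals of these shares, which cover counting error only, do not overlap between the groups.

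Type V collagen, which sets the size of type I fibrils, also rose. COL5A1 went from 3.71 and 3.77 CPM in hESC to 101.3 and 67.8 CPM in blastoids (log2 fold change 4.35 ± 0.22) and COL5A2 from 8.23 and 7.29 to 145.1 and 130.8 CPM (4.02 ± 0.15). The less common chain COL5A3 went the other way, with 38 and 46 UMIs in hESC and 0 and 3 in blastoids, a ratio of 31.8 in favour of hESC (exact counting interval 10.5 to 157.2). COL5A3 was called lower in blastoids (edgeR adjusted p = 7.25e-04). Thus 2 chains of type V rose and 1 fell in the same samples.

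The cartilage-associated fibrillar chains were present at lower levels. COL2A1, the main chain of cartilage fibrils, was at 3.04 and 2.14 CPM in hESC and 16.5 and 14.9 CPM in blastoids (log2 fold change 2.48 ± 0.23). COL11A1, which helps to start such fibrils, was at 8.23 and 6.66 CPM in hESC and 74.7 and 50.2 CPM in blastoids (2.93 ± 0.22). Its partner COL11A2 was at 0.741 to 2.15 CPM over the 4 samples and was not called (edgeR adjusted p = 0.0795). COL27A1, a later-described fibrillar chain, rose from 11.6 and 10.1 CPM to 28.7 and 20.7 CPM (1.05 ± 0.19), and COL24A1 stayed under 1 CPM in each sample without a call. Leaving out blastoid 3 brought COL11A2 to a call (log2 fold change 1.39, edgeR adjusted p = 0.00851).

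The 3 chains of type VI collagen, whose molecule joins one of each, rose to different extents. COL6A1 went from 58 and 56.2 CPM in hESC to 445.8 and 284.4 CPM in blastoids (log2 fold change 2.53 ± 0.20) and COL6A2 from 25.4 and 23.8 to 284 and 234.5 CPM (3.26 ± 0.14). COL6A3, the large chain of this molecule, went from 1.93 and 1.51 CPM to 391.2 and 288.4 CPM (7.49 ± 0.23, edgeR adjusted p = 3.20e-06). COL6A3 held 3.22% and 2.61% of the UMIs that it shares with COL6A1 in hESC and 46.7% and 50.3% in blastoids. The stem cells thus showed COL6A1 and COL6A2 with little COL6A3. COL6A6, a further chain of type VI, had 0 and 2 UMIs in hESC and 77 and 130 in blastoids, a ratio of 91.2 (exact counting interval 24.9 to 758.1).

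The type IV chains of the basement membrane changed less. COL4A1 was at 42.3 and 47.3 CPM in hESC and at 147.7 and 92.6 CPM in blastoids (log2 fold change 1.28 ± 0.19, edgeR adjusted p = 0.00141), and its partner COL4A2 at 49.4 and 52.5 and at 149.4 and 114.9 CPM (1.24 ± 0.14, edgeR adjusted p = 3.79e-04). Both chains of this pair rose by nearly the same amount, and COL4A1 held 44.6% to 49.7% of their joint UMIs in each of the 4 samples. A part of the stretch between their start sites in this was not tested. COL4A5 rose from 18.1 and 17.8 to 46.8 and 37.9 CPM (1.10 ± 0.14) and its neighbour COL4A6 from 10.2 and 8.99 to 22.4 and 15 CPM (0.82 ± 0.21, edgeR adjusted p = 0.0133). The call of COL4A6 was lost without hESC 1 (0.93, edgeR adjusted p = 0.0577) and without hESC 2 (0.70, edgeR adjusted p = 0.105). The 3rd pair was near the detection limit: COL4A3 had at most 3 UMIs in a sample, and COL4A4 fell from 2.52 and 1.45 CPM to 1.12 and 0.717 CPM (edgeR adjusted p = 0.0456), a call lost with DESeq2 (adjusted p = 0.147), without TMM scaling (edgeR adjusted p = 0.0693), with doublet calls left out (edgeR adjusted p = 0.0535) and without hESC 1 (edgeR adjusted p = 0.39), hESC 2 (edgeR adjusted p = 0.0597) or blastoid 4 (edgeR adjusted p = 0.0658).

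Type IX collagen is a FACIT molecule made of 3 chains, and its genes moved in opposite directions. COL9A2 rose from 1.41 and 1.45 CPM in hESC to 28.8 and 25.5 CPM in blastoids (log2 fold change 4.11 ± 0.19, edgeR adjusted p = 8.92e-06). COL9A1 fell from 12.6 and 13.4 CPM to 3.55 and 4.13 CPM (-1.88 ± 0.20, edgeR adjusted p = 2.92e-04), and COL9A3 from 23.2 and 21.7 to 13.9 and 16.2 CPM (-0.71 ± 0.17, edgeR adjusted p = 0.0103). No sample of one group overlapped the other for any of the 3 genes, but the share of all genes with such a separation was not counted. The call of COL9A3 was lost without hESC 1 (-0.64, edgeR adjusted p = 0.107). COL9A2 held 5.72% and 6.23% of the UMIs it shares with COL9A3 in hESC and 67.5% and 61.2% in blastoids.

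Among the other FACIT genes COL12A1, COL21A1 and COL22A1 rose and COL14A1 fell. COL12A1, whose product binds type I fibrils, was at 0.519 and 0.314 CPM in hESC and at 4.93 and 11.9 CPM in blastoids (log2 fold change 4.23 ± 0.60, edgeR adjusted p = 0.00105). Its level was the higher in blastoid 4. COL21A1 was at 5.04 and 5.66 CPM in hESC and 20.2 and 15.7 CPM in blastoids (1.61 ± 0.18), and COL22A1, a collagen of tissue junctions, at 1.26 and 0.566 and at 9.92 and 5.95 CPM (2.99 ± 0.41). COL14A1, another fibril-associated chain, went from 12.3 and 14.1 CPM to 9.78 and 7.94 CPM (-0.71 ± 0.17, edgeR adjusted p = 0.0115), a call lost without hESC 1 (edgeR adjusted p = 0.0645) or hESC 2 (edgeR adjusted p = 0.116). COL16A1 was at 1.26 to 1.97 CPM and was not called.

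The transmembrane collagens, which stay anchored in the cell surface, rose in the 3 genes that could be tested. COL13A1 was at 0.89 and 0.691 CPM in hESC and at 26.7 and 19.1 CPM in blastoids (log2 fold change 4.72 ± 0.27, edgeR adjusted p = 1.63e-05). COL25A1 was at 4.82 and 4.27 CPM in hESC and at 12.9 and 11.9 CPM in blastoids (1.32 ± 0.19). COL23A1 was at 7.19 and 6.03 and at 10.1 and 14.8 CPM (0.80 ± 0.26, edgeR adjusted p = 0.0345), and its call was lost with DESeq2 (adjusted p = 0.0558) and without hESC 1 (edgeR adjusted p = 0.0937), hESC 2 (edgeR adjusted p = 0.189) or blastoid 4 (edgeR adjusted p = 0.0716). COL26A1, which is not one of the transmembrane genes and was grouped apart from the families, rose from 11.4 and 13.6 to 26.1 and 24.6 CPM (0.89 ± 0.15).

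COL18A1, a basement membrane collagen whose tail is the source of endostatin, was at nearly the same level in the groups. It was at 78.5 and 73.6 CPM in hESC and at 79.3 and 76 CPM in blastoids (log2 fold change -0.10 ± 0.12, edgeR adjusted p = 0.521). Without TMM scaling, which moves the median of all genes by 0.13, the value was 0.03. COL15A1, its relative, was missing from both hESC tables and was at 4.93 and 1.27 CPM in blastoids, at least 8.65-fold higher. COL7A1, the anchoring fibril chain, and COL8A2 were at 0.827 to 3.97 CPM and were not called. COL7A1 was called higher in blastoids without TMM scaling (1.03, edgeR adjusted p = 0.0372), with no filter on low counts (0.94, edgeR adjusted p = 0.0258) and without blastoid 3 (1.19, edgeR adjusted p = 0.00203).

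Detection in single cells was compared at equal depth. After each cell was thinned to 2000 UMIs, the share of cells with a UMI was larger in blastoid 3 and in blastoid 4 than in each stem cell sample for 28 of the 44 genes, and smaller for 5. Over the 21953 genes with a UMI in these cells, 37% had the larger and 23.5% the smaller shares in the blastoids. COL3A1 was found in 47.4% and 38.1% of blastoid cells (59.0% and 56.2% before thinning) and in 0 of 1830 and 0 of 2202 hESC cells. At 3 cells of the total, a 0 here allows a share of cells with a UMI of up to 0.164% and 0.136%, which is no limit on cells expressing the gene. COL1A2 was found in 9.95% and 11% of hESC cells and in 47.5% and 42.2% of blastoid cells, or 24.7%, 21.9%, 73.0% and 78.1% before thinning. The median depths before thinning were 6503.5, 6184.5, 6364 and 8920 UMIs in these cells, and shallower cells were left out.

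Within the blastoids the question was which cells carried the collagens. UMIs of mesenchymal and of epithelial cells were summed per sample and tested with edgeR with the sample as a block. With 4 sums and 3 coefficients a gene has 1 residual degree of freedom, so the spread rests largely on that shared by all genes. Of 34 collagen genes tested, 24 were higher in mesenchymal cells and 7 in epithelial cells, while 25.3% of 14701 genes were called higher and 26.8% lower in mesenchymal cells. The median log2 fold change of mesenchymal over epithelial cells was 1.67 for collagen genes and 0.01 for all genes. Summed over the 44 genes, collagen was at 4941.1 and 3828.6 CPM in mesenchymal and at 1359.6 and 1436.5 CPM in epithelial cells.

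**Figure D2:**
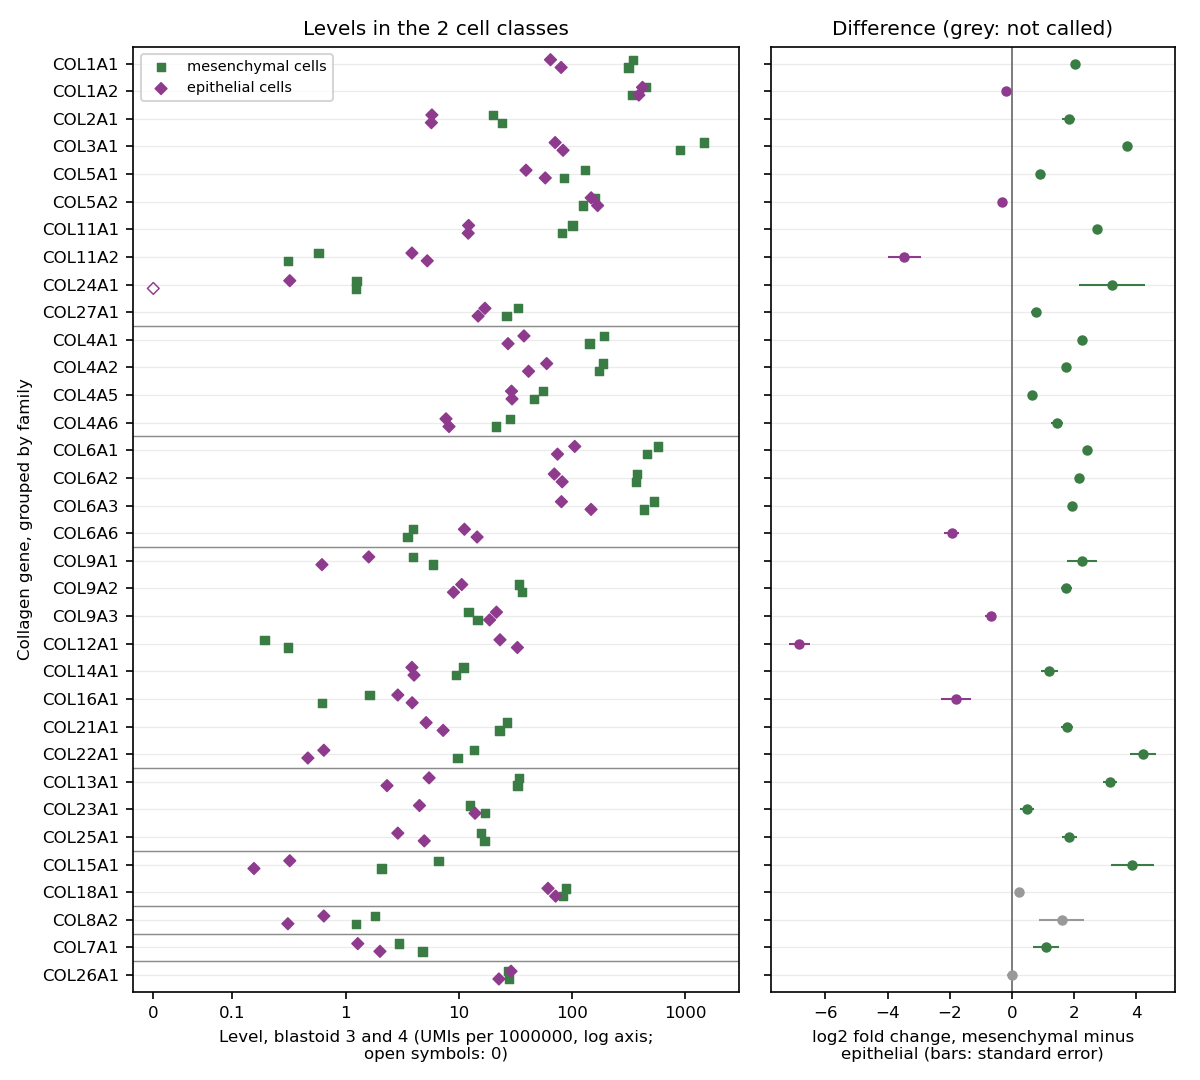
Left, level of the 34 tested collagen genes in UMIs per 1000000 on a log axis in mesenchymal (squares) and epithelial (diamonds) cells of blastoid 3 and 4; right, log2 fold change of mesenchymal minus epithelial with its standard error, grey where not called. Most genes lie to the right of 0, COL12A1 lies at -6.84, and COL1A2 and COL5A2 lie close to 0.

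COL3A1 showed the widest gap among the abundant chains. It was at 1460.3 and 902.3 CPM in mesenchymal and at 70.9 and 83.3 CPM in epithelial cells of blastoid 3 and blastoid 4 (log2 fold change 3.71 ± 0.10). Mesenchymal cells held 97.9% and 92.5% of its UMIs. It was found in 61.6% and 59.2% of thinned mesenchymal cells, in 9.16% and 10.5% of epithelial cells and in 8.93% and 3.77% of pluripotent cells. The exact 95% intervals of the epithelial and pluripotent shares overlap in each sample (6.53% to 12.4% and 4.36% to 15.8% in blastoid 3, 8.22% to 13.1% and 1.04% to 9.38% in blastoid 4). Before thinning the epithelial shares were 24.8% and 27.1% and the pluripotent ones 22.8% and 10.8%. The median depths of the pluripotent cells before thinning were 9185 and 13192 UMIs against 6756 and 9251.5 in epithelial cells. The part of free RNA in these low shares was not tested.

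The chains of type I collagen differed from each other in this respect. COL1A1 was at 347.3 and 314.7 CPM in mesenchymal and at 64.5 and 80.1 CPM in epithelial cells (log2 fold change 2.04 ± 0.09). COL1A2 was at 449.7 and 337.2 CPM in mesenchymal and at 419.2 and 389 CPM in epithelial cells, so the classes overlap. Its fitted value was -0.19 ± 0.07 (edgeR adjusted p = 0.0163), and the call was lost without the replicate block (adjusted p = 0.497), with DESeq2 (adjusted p = 0.26), without TMM scaling (edgeR adjusted p = 0.508) and with no filter on low counts (edgeR adjusted p = 0.112). Epithelial cells thus carried COL1A2 at a level near that of the mesenchymal class as a whole, whose clusters, given below, differed. Their COL1A1 was at 18.6% and 25.5% of the mesenchymal level.

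Detection of the pair in single cells comes from the same UMIs, so it is no separate test of this imbalance. Whether the chains occurred together more or less often than their single shares imply was not tested. COL1A2 without COL1A1 was found in 49.8% and 43.5% of thinned epithelial cells, and both chains in 4.95% and 5.85%. In mesenchymal cells both chains were found in 27.2% and 22.8% and COL1A2 alone in 21.5% and 17.7%. COL1A2 was found in 54.7% and 49.4% of epithelial cells against 17.9% and 18.9% of the pluripotent cells of the same samples. COL1A1 held 13.3% and 17.1% of the joint type I UMIs in epithelial cells and 43.6% and 48.3% in mesenchymal cells, and the hESC shares given above lie between these.

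**Figure D3:**
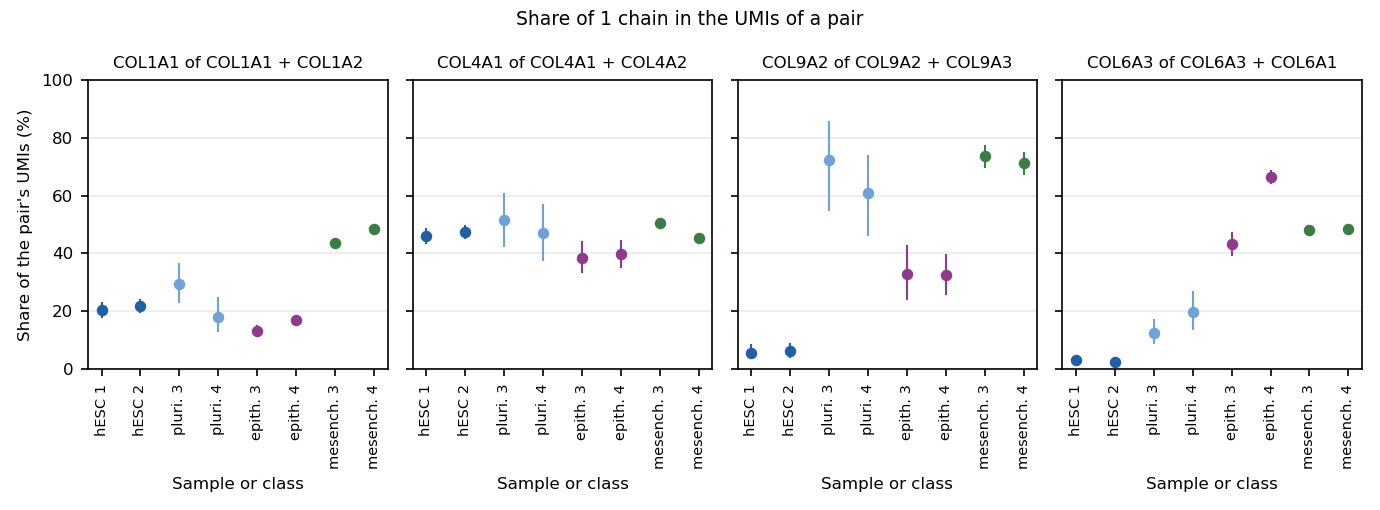
Share of 1 chain in the UMIs of 4 chain pairs, in percent, for the hESC samples and for the pluripotent, epithelial and mesenchymal cells of blastoid 3 and 4, with exact 95% intervals for counting error. COL1A1 was at 13.3% and 17.1% in epithelial and 43.6% and 48.3% in mesenchymal cells, whereas COL4A1 stayed between 38.6% and 51.7% in each group shown.

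Type V collagen had a like pattern. COL5A2 was at 157.6 and 125.7 CPM in mesenchymal and at 147.6 and 168.2 CPM in epithelial cells, and its fitted value of -0.31 ± 0.09 (edgeR adjusted p = 0.0026) lost its call without the replicate block (adjusted p = 0.242), with DESeq2 (adjusted p = 0.172) and without TMM scaling (edgeR adjusted p = 0.0578). COL5A1 was at 130.1 and 84.7 CPM in mesenchymal and at 39.2 and 58 CPM in epithelial cells (log2 fold change 0.91 ± 0.13, edgeR adjusted p = 3.24e-08, DESeq2 adjusted p = 0.225). The share of COL5A1 in the joint UMIs was 21.0% and 25.6% in epithelial and 45.2% and 40.3% in mesenchymal cells. In both molecules the chain numbered A2 was at nearly equal levels in the classes taken as a whole. The chain numbered A1 was the higher in mesenchymal cells of each sample.

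COL12A1 was carried by epithelial cells. It was at 23.1 and 32.9 CPM in epithelial and at 0.192 and 0.311 CPM in mesenchymal cells, from 72 and 213 against 2 and 3 UMIs. The ratio was 120.6 in blastoid 3 (exact counting interval 32.2 to 1015) and 105.8 in blastoid 4 (35.7 to 517.3), with a fitted log2 fold change of -6.84 ± 0.33 (edgeR adjusted p = 3.31e-24). Epithelial cells held 96.0% and 98.6% of its UMIs, and blastoid 4 had the larger share of epithelial cells. It was found in 4.95% and 5.69% of thinned epithelial cells and in 0 of 1580 and 0 of 1087 mesenchymal cells, which allows a share of thinned cells with a UMI of up to 0.19% and 0.276% (3 cells of the total). Before thinning the mesenchymal shares were 0.125% and 0.273% and the epithelial ones 11.8% and 21.0%.

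COL6A6 and COL11A2 were also higher in epithelial cells, and with COL12A1 they were the genes called higher there in each alternative with a test. COL6A6 was at 11.2 and 14.5 CPM in epithelial and 3.93 and 3.53 CPM in mesenchymal cells (log2 fold change -1.94 ± 0.25). COL11A2 was at 3.85 and 5.26 CPM in epithelial and 0.575 and 0.311 CPM in mesenchymal cells (-3.46 ± 0.52), with 12 and 34 against 6 and 3 UMIs. Its partner COL11A1 was at 12.2 and 12.1 CPM in epithelial and 100.7 and 81.8 CPM in mesenchymal cells (2.74 ± 0.13), so the partners went in opposite directions. COL9A3 (21.5 and 18.7 against 12.2 and 14.6 CPM) and COL16A1 (2.89 and 3.87 against 1.63 and 0.622 CPM) were called higher in epithelial cells by edgeR and not by DESeq2 (adjusted p = 0.153 and 0.182).

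The 4 tested type IV chains and COL6A1, COL6A2 and COL6A3 were higher in mesenchymal cells, in contrast to COL6A6. COL4A1 was at 190.6 and 142.8 CPM in mesenchymal and 37.6 and 27.2 CPM in epithelial cells (log2 fold change 2.24 ± 0.10), and COL4A2 at 186.8 and 173.2 and at 59.7 and 41.3 CPM (1.74 ± 0.09). COL4A5 was at 55.4 and 45.9 CPM in mesenchymal and 29.2 and 29.5 CPM in epithelial cells (0.63 ± 0.13), and COL4A6 at 28.4 and 21.2 and at 7.70 and 8.19 CPM (1.44 ± 0.19). For these 4 genes no epithelial value reached a mesenchymal one, and here too the share of all genes with such a separation was not counted. COL6A1 was at 573.9 and 456.9 CPM in mesenchymal and 105.6 and 74.4 CPM in epithelial cells (2.40 ± 0.07), and COL6A2 at 376.1 and 368.7 and at 69.7 and 81.8 CPM (2.15 ± 0.08). COL6A3 was at 529.8 and 431.5 CPM in mesenchymal and at 80.6 and 147.2 CPM in epithelial cells (1.92 ± 0.11), the higher epithelial value being that of blastoid 4.

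Several less abundant genes were also higher in mesenchymal cells. COL22A1 was at 13.6 and 9.75 CPM in mesenchymal and 0.642 and 0.464 CPM in epithelial cells (log2 fold change 4.22 ± 0.42), and COL13A1 at 33.9 and 32.9 and at 5.46 and 2.32 CPM (3.14 ± 0.22). COL9A2 was at 34.1 and 36.2 CPM in mesenchymal and 10.6 and 8.97 CPM in epithelial cells (1.75 ± 0.17), COL21A1 at 26.7 and 22.8 and at 5.14 and 7.27 CPM (1.77 ± 0.20), and COL2A1 at 20 and 24 and at 5.78 and 5.72 CPM (1.83 ± 0.21). Each of these 5 genes was higher in the mesenchymal cells of both samples, but the share of all genes with this order was not counted. COL25A1 (15.7 and 16.9 against 2.89 and 4.95 CPM), COL14A1 (11 and 9.44 against 3.85 and 4.02 CPM), COL9A1 (3.93 and 5.91 against 1.60 and 0.618 CPM) and COL27A1 (33.2 and 26.4 against 17 and 14.8 CPM) were called higher in mesenchymal cells too, and the last 3 lost the call with DESeq2 (adjusted p = 0.115, 0.0932 and 0.0715). COL14A1 and COL9A1 had fallen between hESC and blastoids.

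COL15A1, COL24A1, COL7A1 and COL23A1 were called higher in mesenchymal cells, and each but COL15A1 lost the call with DESeq2 (adjusted p = 0.291, 0.464 and 0.353 in the same order). COL7A1 and COL23A1 also lost it without the replicate block (edgeR adjusted p = 0.154 and 0.521) and with classes taken from clusters (edgeR adjusted p = 0.0648 and 0.0831). COL23A1 lost it as well with LUM left out of the mesenchymal markers (edgeR adjusted p = 0.101) and with doublet calls left out (edgeR adjusted p = 0.099). The genes not called were COL18A1, COL8A2 and COL26A1. COL18A1 was at 88.4 and 82.8 CPM in mesenchymal and 61.3 and 71.6 CPM in epithelial cells (0.22 ± 0.10, edgeR adjusted p = 0.0586), and was called without TMM scaling (0.35, edgeR adjusted p = 0.00102), with no filter on low counts (0.28, edgeR adjusted p = 0.0153) and where a class needed 3 markers (0.23, edgeR adjusted p = 0.046). COL8A2 was called higher in mesenchymal cells without TMM scaling (1.72, edgeR adjusted p = 0.0398). COL26A1 was at 27.2 and 27.6 and at 28.9 and 22.6 CPM (-0.01 ± 0.15).

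Collagen levels also differed among blastoid cells within the mesenchymal class. Clusters were made with all collagen genes left out of the variable genes, and they are described here by number and leading genes, with no test. The summed collagen level was highest in cluster 9, led by CXCL14, MGP, POSTN and HGF, at 16978.6 CPM in blastoid 3 and 12943.4 CPM in blastoid 4. Cluster 8, led by EGFL6, PAPPA, CXCL14 and POSTN, was next with 9430.4 and 8668.9 CPM. The other mesenchymal clusters with at least 20 cells in both samples, numbered 2 to 5, were between 2635.2 and 4814.5 CPM, the epithelial clusters 1 and 6 between 1267.1 and 1446 CPM and the pluripotent cluster 7 at 783 and 567.1 CPM. In both samples the order of cluster 9, cluster 8 and the rest was the same.

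Clusters 8 and 9 together were 12.0% of the cells of blastoid 3 and 5.02% of those of blastoid 4. They held 38.9% and 20.2% of all collagen UMIs, and 59.0% and 36.2% of those of COL3A1. The COL3A1 level was 7241.8 and 4655.9 CPM in cluster 9 and 3665 and 2920.9 CPM in cluster 8, against 1517.7 and 1082.5 CPM in cluster 3, led by TECRL, PLAT and RELN. Both the share of cells in these clusters and the COL3A1 level within them were higher in blastoid 3 than in blastoid 4.

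**Figure D4:**
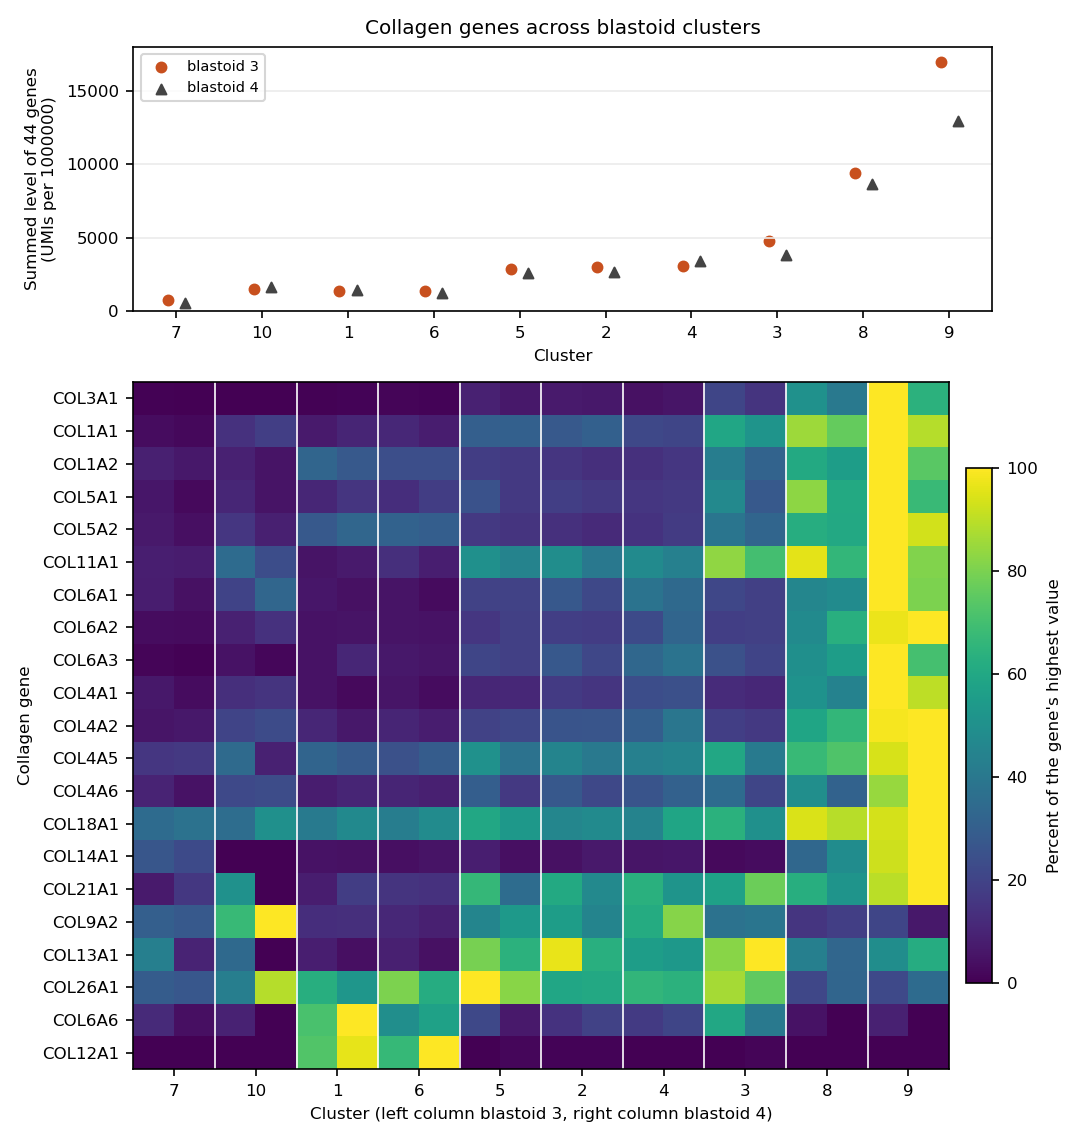
Above, summed level of the 44 collagen genes in UMIs per 1000000 by blastoid cluster (circles blastoid 3, triangles blastoid 4; axis from 0). Below, level of 21 named genes in each cluster and sample as a percentage of the gene's highest value. Clusters 8 and 9 are highest for most chains, while COL9A2, COL13A1, COL26A1, COL6A6 and COL12A1 are highest elsewhere.

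Of 30 collagen genes that reached 10 CPM in one of the 9 clusters with at least 20 cells in both samples, 15 were highest in cluster 9 in both samples. The share of all genes highest in cluster 9 was not counted, so nothing about collagens is read from this count. COL14A1, which fell between hESC and blastoids over whole samples, was at 74.4 and 80.5 CPM in cluster 9 and at 26.8 and 39.1 CPM in cluster 8, against at most 6.77 CPM in clusters 1 to 6 and 21.4 and 18.2 CPM in the pluripotent cluster 7. COL4A1 was at 739.2 and 665.8 CPM in cluster 9 and at 91.1 and 82.5 CPM in cluster 3, which was below the 174.2 and 179.7 CPM of cluster 4, led by HOXB9, HOXA9 and CDX2. COL1A1 had the reverse order in these last clusters. Its level was 472.1 and 412.3 CPM in cluster 3 and 171.7 and 167.2 CPM in cluster 4. The mesenchymal clusters lay on both sides of the epithelial ones for COL1A2. It was at 348.7 to 473 CPM in epithelial clusters 1 and 6, at 193.4 to 262.2 CPM in clusters 2, 4 and 5 and at 464.5 to 1455.2 CPM in clusters 3, 8 and 9. For COL5A2 the ranges in the same order were 147 to 173.1, 63.2 to 91.9 and 171.3 to 525.4 CPM.

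Some chains did not follow the total. COL9A2 was at 45.8 and 60.9 CPM in cluster 4 and at 15.5 and 4.88 CPM in cluster 9. COL26A1 was at 41.8 and 34.3 CPM in cluster 5, led by CCNB1 and CDC20, and at 9.3 and 14.6 CPM in cluster 9. COL12A1 was at 25.2 and 33.2 CPM in cluster 1 and 23.1 and 34.5 CPM in cluster 6, and at most 0.563 CPM in any other cluster. COL18A1 varied least among the abundant chains drawn, from 51.9 to 148.8 CPM over the clusters 1 to 9.

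Genes that fold, process, bind and degrade collagen were taken from 5 lists. Of 19 folding and modification genes, which hydroxylate and chaperone the chains in the endoplasmic reticulum, 13 were higher in blastoids and 0 lower (median log2 fold change 0.64), against 27.3% higher and 23% lower of all genes (median 0.05). P4HA2, a prolyl hydroxylase subunit, was at 7.78 and 7.67 CPM in hESC and 30.7 and 24.6 CPM in blastoids (1.70 ± 0.16, edgeR adjusted p = 1.66e-04), and FKBP14, a proline isomerase, at 13.5 and 16.5 and at 46.8 and 37.3 CPM (1.35 ± 0.16). In mesenchymal against epithelial cells 11 of the 19 were higher and 3 lower (median 0.45), against 25.3% and 26.8% of all genes (median 0.01). SERPINH1, the collagen chaperone HSP47, named here after its values were seen, was at 109.9 and 117.6 CPM in hESC and 121.6 and 129.2 CPM in blastoids (0.01, edgeR adjusted p = 0.944).

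Of 11 tested genes of propeptide processing and cross-linking, 7 were higher in blastoids and 1 lower (median 1.03), beside 27.3% and 23% of all genes. PCOLCE, which enhances the removal of the propeptide, was at 9.56 and 11.1 CPM in hESC and 74.3 and 70.9 CPM in blastoids (2.68 ± 0.14, edgeR adjusted p = 1.29e-05), and at 96.6 and 112 CPM in mesenchymal against 20.2 and 23 CPM in epithelial cells. LOXL4, a cross-linking oxidase, was at 0 in both hESC samples and at 0.854 and 4.02 CPM in blastoids, and TLL2, a protease of the BMP1 group, went from 2.37 and 1.63 to 0.328 and 0.717 CPM (-2.01 ± 0.48). In mesenchymal cells 6 of 10 tested genes of this list were higher and 3 lower than in epithelial cells, beside 25.3% and 26.8% of all genes.

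The discoidin domain receptors went in opposite directions. DDR2, a receptor kinase for fibrillar collagen, was at 0.964 and 0.628 CPM in hESC and 50.2 and 45.5 CPM in blastoids (5.79 ± 0.22, edgeR adjusted p = 4.82e-06), with 72.3 and 82.8 CPM in mesenchymal and 1.60 and 2.32 CPM in epithelial cells (5.11 ± 0.20). DDR1, its relative of epithelial tissues, went from 29.4 and 30.9 to 16.1 and 19.4 CPM (-0.89 ± 0.17, edgeR adjusted p = 0.00356), with 9.58 and 9.33 CPM in mesenchymal and 35 and 34.6 CPM in epithelial cells (-2.01 ± 0.16). ITGA1, an integrin chain that binds collagen, was at 2.67 and 2.01 CPM in hESC and 21.5 and 11 CPM in blastoids (2.65 ± 0.34). Of the 5 receptors tested, 3 were higher and 1 lower in blastoids (median 0.67, beside 27.3% and 23% of all genes). In mesenchymal cells 2 were higher and 2 lower (median -0.04, beside 25.3% and 26.8% of all genes), and nothing about the receptors as a group is read from these 5 genes.

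Of 8 tested genes of collagen breakdown and its inhibitors, 5 were higher in blastoids and 2 lower (median 0.66, beside 27.3% and 23% of all genes). In mesenchymal against epithelial cells 2 were higher and 3 lower (median -0.01, beside 25.3% and 26.8% of all genes), which is no result about this list. TIMP3, an inhibitor of metalloproteinases held in the matrix, was at 3.11 and 2.95 CPM in hESC and 30.7 and 31.4 CPM in blastoids (3.22 ± 0.18), and MRC2, which takes up collagen for degradation, at 9.19 and 10.8 and at 96.8 and 46.9 CPM (2.69 ± 0.31). CTSK and MMP9, a cysteine protease and a gelatinase, fell by 1.34 and 1.33 on the log2 scale.

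Most basement membrane partners of type IV collagen rose in blastoids, and most were higher in epithelial cells, unlike the type IV chains. Of 13 tested laminin, nidogen, perlecan and agrin genes, 10 were higher in blastoids and 1 lower (median 1.08), beside 27.3% and 23% of all genes. NID2, which links laminin to type IV collagen, was at 3.11 and 2.95 CPM in hESC and 195.2 and 129.9 CPM in blastoids (5.60 ± 0.23), with 266.7 and 214.9 CPM in mesenchymal and 28.6 and 32.9 CPM in epithelial cells. LAMB3, a laminin chain of epithelia, was at 0.297 and 0 CPM in hESC and 1.31 and 3.31 CPM in blastoids, with 0.0958 and 0 CPM in mesenchymal and 5.46 and 8.97 CPM in epithelial cells (edgeR adjusted p = 7.54e-13), and LAMC3 fell by 1.24 on the log2 scale. In mesenchymal against epithelial cells 3 of the 13 were higher and 8 lower (median -1.11, beside 25.3% and 26.8% of all genes), whereas the 4 type IV chains tested were higher in mesenchymal cells. Over the 5 lists 38 genes were called higher and 5 lower in blastoids, and without hESC 1 these counts were 25 and 2, without hESC 2 they were 27 and 2.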

How the data were processed

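Single-cell RNA was measured with 10x Chromium 3′ v3.1 libraries in 4 samples. For each sample the authors deposited a matrix of UMI counts, not normalized, of gene symbols by barcodes. Its values were whole numbers. Per the submitters' processing notes Cell Ranger and GRCh38 were used. Versions, the annotation, filters and whether strand was used are not given in the sources used here. The tables held 14930662, 17716886, 15682286 and 18193164 UMIs.

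Cells with at least 500 genes were kept. Doublets called with Scrublet (27, 0, 11 and 35 cells) were kept and left out in an alternative. UMI counts were summed per sample, or per sample and marker class, and tested with edgeR 4.0.16 (quasi-likelihood F test, TMM, filterByExpr, Benjamini-Hochberg over the genes tested), after a check on simulated data. DESeq2 1.42.0 was an alternative. The standard error is the log2 fold change divided by the square root of F. Both class sums of a sample come from the same cells' library, so the sample was a block there by construction. CPM uses total UMIs. A gene that a table does not list was set to 0 counts there and taken to be in at most 2 barcodes, which over the 2 hESC tables gives an upper 95% limit of 9.15 counts. This assumes 1 UMI per barcode. Shares have exact Clopper-Pearson 95% intervals, for counting error only, after thinning to 2000 UMIs. Clusters used scanpy 1.11.5 and leidenalg 0.10.2 (2000 variable genes without collagens, 30 components, 15 neighbours, resolution 0.5).

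Named are collagen genes called with a mean of at least 10 CPM in a group or at 10 CPM or more in both hESC samples, their partner chains, and in each list the 2 genes that rose most and the 2 that fell most among those called. Other collagen genes are given by range or count. The collagen genes, marker lists and gene lists were chosen with earlier results of these data known.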

Additional observations from a re-analysis of the deposited data

How the results depend on the processing

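Between blastoids and hESC, 23 of the 25 collagen genes called higher (the exceptions were COL4A6 and COL23A1) and 2 of the 5 called lower (COL5A3 and COL9A1) were called in each alternative with a test. Leaving out 1 library at a time gave 23 to 27 higher and 2 to 6 lower collagen genes, and 25 to 40 higher and 2 to 5 lower list genes. Asking also for a log2 fold change past 1 gave 22 higher and 3 lower collagen genes and 25 higher list genes. This cut-off is not one of the alternatives with a test counted here. COL26A1, at 0.89, did not reach it, nor did COL4A5 between mesenchymal and epithelial cells, at 0.63. The sign of 3 genes without a call turned: COL16A1 was at 0.46 without hESC 1 and -0.03 without hESC 2, COL24A1 at 1.09 and -0.05, and COL18A1 at 0.03 without TMM scaling. Between mesenchymal and epithelial cells 17 of 24 higher and 3 of 7 lower collagen genes were called in each alternative with a test. DESeq2 called 17 higher and 3 lower, and a log2 fold change past 1 left 20 higher and 4 lower collagen genes and 14 higher list genes. Without the replicate block 22 were higher and 5 lower. COL26A1, not called, was at 0.12 without TMM scaling and 0.05 with no filter on low counts. Leaving out a blastoid sample there gives values with no test. The cause of these changes was not tested. No paired analysis was possible because the hESC samples are numbered 1 and 2 and the blastoid samples 3 and 4, so the groups share no number. Of the shares after thinning, 32 and 4 genes moved up and down without thinning and 27 and 4 at 1000 UMIs. The share of all genes that moved so was not counted for these settings, so nothing about collagens is read from these counts. Without thinning the median depths were 5793 and 4996 UMIs in the hESC samples and 6232 and 8828 in the blastoids, which is not equal depth. Leiden resolutions of 0.3 and 0.8 gave the same highest summed level, 14961 CPM as the mean of both samples. Depth limits genes under about 1 CPM.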

Other observations

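Collagen UMIs were also counted in the blastoid cells of the pluripotent class. Their summed level was 948.9 CPM in blastoid 3 and 654.7 CPM in blastoid 4, above the 478.6 and 476.4 CPM of the hESC samples. COL6A1 was at 205.6 and 88.6 CPM, COL1A2 at 116.3 and 100.9 CPM, COL3A1 at 37.2 and 50.1 CPM and COL9A2 at 24.2 and 22.5 CPM. COL9A2 held 72.2% and 60.8% of the UMIs it shares with COL9A3, near its share in mesenchymal cells, while COL6A3 held 12.6% and 19.7% of those it shares with COL6A1. These cells were few (127 and 111), their summed mesenchymal markers were at 310.7 and 185.1 CPM, and the part of mesenchymal RNA in these levels was not tested.

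The endothelial class held 5 and 12 cells, with 14 and 23 UMIs of COL4A1, 15 and 19 of COL4A2 and 14 and 25 of COL3A1. COL15A1, which in tissues is found in basement membranes around vessels, had 3 and 0 UMIs in them. These numbers allow no comparison with the other classes.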
